A study of Homo sapiens with 4 samples.

Results

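The regions described here are 1496 peaks called for USF1 in both replicates, each at an end of a single protein-coding gene. The cells were Huh7, a human liver cancer line. USF1 was overexpressed in these cells, per the series' design text, and chromatin was precipitated through an anti-FLAG antibody, per the labels' protocols. The 4 libraries comprised 2 of immunoprecipitated DNA (IP 1 and IP 2) and 2 of input chromatin from the same cell line (input 1 and input 2). No IP from cells lacking the tagged factor was used here, peak lists hold no expression by which the cell type could be checked, and the labels do not state whether the replicates were separate cultures. Each IP had been compared with the input of its number by the authors, giving list 1 (14300 peaks) and list 2 (27325 peaks), from 43562726 to 47165647 tags per library after duplicates were removed.

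A list 1 peak was taken when it overlapped a list 2 peak by 1 bp or more, lay on chromosomes 1 to 22 or X, and had its centre within 1 kb of the start or end coordinate of exactly 1 protein-coding gene in RefSeq's annotation of GRCh38. Of 5335 shared peaks on these chromosomes, 1496 met the rule (28.0%, 95% Wilson interval 26.9 to 29.3%), and they lay at 1488 genes. A further 411 shared peaks lay near ends of 2 or more genes and 3428 lay away from such ends. Because the rule used the peak calls themselves, the number, position and strength of these peaks are given as descriptions without a test. Wilson intervals on shares cover counting error only.

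USF1 is a transcription factor of the basic helix-loop-helix leucine zipper class. It binds DNA as a dimer with itself or with its relative USF2, each partner reading one side of a short palindrome called the E-box, CACGTG. Several other factors of the same class, among them MYC with MAX and the lysosomal regulator TFEB, read the same 6 bases, and bases beside the palindrome are known to favour some factors over others. USF1 and USF2 are known as regulators of glucose and lipid genes in liver.

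Many of the strongest peaks lay over promoters that held several E-boxes. The 5 promoters shown are those of the highest ranked peaks, by the lower of the 2 folds over input, whose promoter sequence held an E-box. They were taken from RefSeq's promoter sequences for GRCh38.p14 and run 5′ to 3′ on the strand of the gene from 250 bases before the annotated start site to 50 bases from it. Every CACGTG is in capitals.
CLCN7: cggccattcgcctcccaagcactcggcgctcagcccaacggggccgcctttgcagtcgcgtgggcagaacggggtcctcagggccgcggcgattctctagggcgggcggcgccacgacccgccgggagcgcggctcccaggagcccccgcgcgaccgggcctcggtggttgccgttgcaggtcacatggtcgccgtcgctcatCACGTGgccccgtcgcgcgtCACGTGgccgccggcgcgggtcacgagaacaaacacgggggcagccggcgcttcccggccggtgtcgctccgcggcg
LAMP1: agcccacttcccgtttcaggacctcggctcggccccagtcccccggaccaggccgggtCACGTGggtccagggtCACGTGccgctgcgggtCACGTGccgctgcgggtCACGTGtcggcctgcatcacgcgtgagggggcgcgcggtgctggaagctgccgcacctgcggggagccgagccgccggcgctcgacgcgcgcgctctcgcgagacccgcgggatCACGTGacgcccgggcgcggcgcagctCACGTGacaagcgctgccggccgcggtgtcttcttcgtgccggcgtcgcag
BAX: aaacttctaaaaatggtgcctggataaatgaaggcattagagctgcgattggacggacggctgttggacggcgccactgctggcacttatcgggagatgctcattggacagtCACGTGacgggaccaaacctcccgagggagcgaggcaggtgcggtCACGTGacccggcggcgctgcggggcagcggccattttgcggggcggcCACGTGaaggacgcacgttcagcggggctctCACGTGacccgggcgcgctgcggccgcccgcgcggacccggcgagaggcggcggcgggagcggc
RRAGB: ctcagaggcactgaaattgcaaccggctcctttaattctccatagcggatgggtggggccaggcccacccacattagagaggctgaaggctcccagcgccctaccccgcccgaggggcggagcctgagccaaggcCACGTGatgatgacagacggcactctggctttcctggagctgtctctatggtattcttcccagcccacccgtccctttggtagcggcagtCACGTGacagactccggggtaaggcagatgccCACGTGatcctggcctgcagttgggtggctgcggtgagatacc
MCOLN1: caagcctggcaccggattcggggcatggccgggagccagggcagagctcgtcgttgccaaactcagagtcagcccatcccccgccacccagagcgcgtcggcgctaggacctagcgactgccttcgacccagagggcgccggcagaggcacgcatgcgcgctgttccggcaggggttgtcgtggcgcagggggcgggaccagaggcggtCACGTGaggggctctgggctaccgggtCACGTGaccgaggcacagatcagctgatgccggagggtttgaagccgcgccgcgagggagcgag

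In these coordinates the start site is base 0 and negative numbers lie upstream. CLCN7, a chloride-proton exchanger of the lysosomal membrane, lies on the minus strand at chr16:1474979-1475278 and had E-boxes beginning at -47 and -27. Its list 1 summit, the point of highest tag pile-up, was at -45. LAMP1, an abundant glycoprotein of the lysosomal membrane, lies on the plus strand at chr13:113296989-113297288 and had 6 E-boxes, of which 4 followed each other at -192, -176, -159 and -142. Its summit was at -150, inside that run. BAX, which opens the mitochondrial outer membrane in apoptosis, lies on the plus strand at chr19:48954625-48954924 and had 4 E-boxes, at -138, -93, -45 and -14, around a summit at -64. RRAGB, a Rag GTPase that relays amino acid supply to the growth kinase complex mTORC1, lies on the plus strand at chrX:55717499-55717798 and had 3, at -115, -25 and 7, with the summit at -71. MCOLN1, a cation channel of the lysosome, lies on the plus strand at chr19:7522374-7522673 and had 2, at -41 and -14, with the summit at -36.

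IP tags in these peaks, which are not scaled to library size, numbered 226 in IP 1 and 323 in IP 2 at CLCN7, and the folds over input were 34.25 and 52.26. LAMP1 had 418 and 462 tags and 60.28-fold and 32.83-fold. BAX had 272 and 363 tags and 33.56-fold and 32.5-fold. All 3 peaks were called in both lists at a false discovery rate (FDR) of 0. RRAGB had 149 and 184 tags and 28.04-fold and 33.29-fold, and MCOLN1 had 253 and 323 tags and 25.96-fold and 40.65-fold. Both also had an FDR of 0 in both lists. GET4, the highest of all 1496 peaks by this ranking (442 and 550 tags, 43.82-fold and 41.04-fold), lay at chr7:875894-877112, at a gene whose product acts in the insertion of tail-anchored proteins into membranes. MTDH (168 and 229 tags, 28.69-fold and 47.81-fold), HEXA (chr15:72375420-72376536) and ATP6V1H were also among the first 12. GET4, MTDH, HEXA and ATP6V1H had no promoter sequence to search, so whether their promoters held an E-box is not known.

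Single E-boxes at further strong peaks are aligned next, with 9 bases on either side, on the strand of the gene. For each promoter the E-box nearest the list 1 summit is shown, and these 12 were picked from the strongest 40, after their values were seen, to cover different functions.
IGF2R: caagggagtCACGTGagcgggggg
CEP162: cccacggccCACGTGaccagcccg
RAD9A: gtgcgccgtCACGTGacggcagag
NAGPA: gacttgagtCACGTGaggcgagcc
RCBTB1: ggccggggcCACGTGacccggcgg
KDM6A: aacaaaggtCACGTGaggcgtgcg
EIF4G1: tgcgccggtCACGTGggggcgccg
CDK4: tcaagcggtCACGTGtgatagcaa
ATP6V0D1: ccttatggtCACGTGaggcgcttg
HOXA7: gtgggcggtCACGTGctgcggcga
DHX35: gaagtgggtCACGTGgctcagacg
ARFGEF2: tCACGTGgtCACGTGacgcgctcc

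The sites chosen here carried GT directly before the palindrome, AC directly after it (the same flank on the other strand), or both. Other strong promoters did not at the E-box nearest the summit, among them CLCN7, BAX, RRAGB, CACUL1 and LOC124900163, and the share with this flank by rank is given further on. IGF2R, the mannose 6-phosphate receptor that carries enzymes to lysosomes, had its site at chr6:159968999-159969022, centred 2 bp from the summit (161 and 234 tags, 25-fold and 42.5-fold). CEP162, a centriole protein that acts in cilium assembly, had 160 and 166 tags and 24.55-fold and 42.5-fold, and its only E-box was centred 3 bp from the summit. RAD9A, a subunit of the clamp that signals DNA damage, had 241 and 376 tags and 21.8-fold and 41.18-fold, with 4 E-boxes in its promoter. NAGPA, the enzyme that uncovers the mannose 6-phosphate tag of lysosomal enzymes, had 159 and 288 tags and 21.02-fold and 25.83-fold. RCBTB1 had 170 and 212 tags, and its E-box nearest the summit was centred 1 bp from it.

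The remaining aligned sites belonged to genes outside the lysosome apart from ATP6V0D1, a membrane-domain subunit of the vacuolar proton pump (255 and 279 tags, 16.67-fold and 23.59-fold). KDM6A, a histone H3 lysine demethylase encoded on the X chromosome, had 114 and 126 tags and 19.03-fold and 22.52-fold. EIF4G1, the scaffold of the cap-binding translation complex, had 124 and 110 tags and 22.75-fold and 18.68-fold. CDK4, a kinase of the G1 phase, had 306 and 421 tags, and the E-box nearest its summit lay at -216, the farthest upstream of the 12. HOXA7, a homeobox factor, had its E-box centre exactly at the summit (0 bp), with 258 and 273 tags and 16.41-fold and 26.69-fold. DHX35, an RNA helicase, had 211 and 237 tags. ARFGEF2, an exchange factor for ARF GTPases of the trans-Golgi network, had 228 and 266 tags and 2 E-boxes that began 8 bp apart, so that both appear in capitals.

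**Figure D1:**
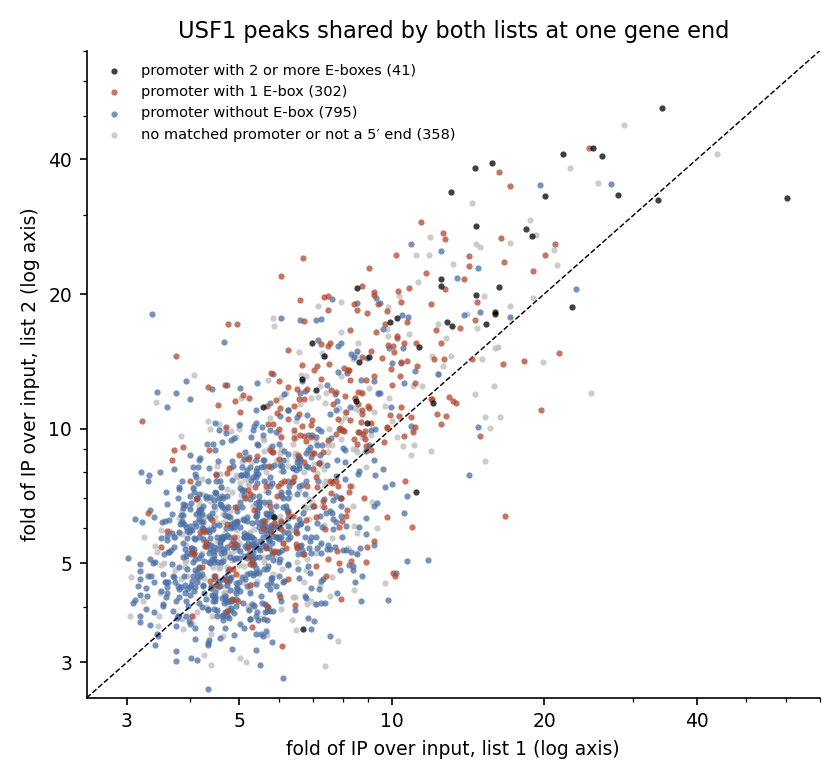
Fold of IP over input of the 1496 peaks in list 1 (horizontal, log axis) and list 2 (vertical, log axis), 1 point per peak, coloured by the number of E-boxes in the gene's promoter; the dashed line marks equal folds. Points with 2 or more E-boxes lie mostly in the upper right, with medians of 13.1-fold in list 1 and 18.25-fold in list 2, and points without one lie mostly in the lower left, with medians of 5.21-fold and 5.85-fold.

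The 1496 peaks ranged from weak to very strong. The fold over input ran from 3.01 to 60.28 in list 1, with a median of 5.69 and quartiles of 4.6 and 7.58, and from 2.62 to 52.26 in list 2, with a median of 6.56 and quartiles of 5.12 and 9.88. IP tags per peak had a median of 84 in list 1 (22 to 495) and 98 in list 2 (27 to 668). Tags of the 2 lists ranked alike across these peaks (Spearman's rho 0.796, n = 1496 peaks, which share the same 2 IP libraries), and folds less so (rho 0.583). The weakest member by the lower fold was at IL6ST, which encodes the shared signalling receptor of the interleukin 6 family, with 4.33-fold and 2.62-fold.

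An 8-fold level or more in each list was reached by 267 of the 1496 peaks (17.8%), against 18.2% of all 5335 shared peaks, so the strength threshold was met about as often here as in the whole set. The share that kept the FDR within 5% in each list was 9.02% (135 peaks) here and 4.76% over all shared peaks. It was 10.2% for shared peaks near ends of 2 or more genes and 2.25% for those away from gene ends. List 1 limited the 135 members that passed in each list, since 1141 members (76.3%) had an FDR of at most 5% in list 2 and 136 (9.09%) in list 1. In list 1, 569 members (38.04%) stood at the FDR ceiling of 100%, against 46.4% of all shared peaks and 35.0% of those near ends of 2 or more genes. The fold was higher in list 2 for 1024 members (68.4%), against 63.1% of all shared peaks and 72.0% of those near ends of 2 or more genes.

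Members were wider and held more tags than shared peaks away from gene ends. Their medians were 84 tags in list 1 and 98 in list 2, with widths of 1080 bp and 1315 bp, against 50 and 56 tags and 777 bp and 851 bp away from gene ends. Peaks near ends of 2 or more genes were closer to the members, with 93 and 108 tags and 1125 bp and 1364 bp. The median lower fold was 5.25 for the members, 5.26 for peaks near several gene ends and 6.05 for peaks away from gene ends.

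Between the paired peaks the summits differed in position by a median of 49 bp, and 1012 of the 1496 (67.6%) lay within 100 bp of each other. The corresponding median was 34 bp for shared peaks away from gene ends, so the members' summits lay farther apart than those by this measure. It was 52 bp for shared peaks near several gene ends, of which 65.7% had summits within 100 bp of each other. The wider gap was therefore not particular to the members. The overlap was never marginal for most, with a median of 998.5 bp and at least 50% of the list 1 peak in 1481 cases, and the smallest was 13 bp. At the 1 kb limit, LMNB1, a nuclear lamin, was just inside with its centre 1000 bp from the gene end (288 and 316 tags, 13.47-fold and 21.67-fold), and CDK16 lay at 998.5 bp (4-fold and 6.6-fold). Just outside were IWS1 at 1005 bp (5.25-fold and 3.38-fold) and PTK2 at 1020 bp (4.46-fold and 4.19-fold).

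The strand of the gene, taken from the promoter table, was known for 1283 members, and 1243 of these lay at the 5′ end (96.9%, 95.8 to 97.7%). The other 40 lay at a 3′ end. Summits concentrated just upstream of the start. For the 1138 peaks at a 5′ end with a matched promoter, the median list 1 summit lay at -78 bp, with quartiles of -168.5 and 1.75, and 850 (74.7%, 72.1 to 77.1%) lay upstream of the start site. Where the promoter held an E-box the summits were closer to the start, with a median of -59 and quartiles of -116 and -22. Without an E-box the median was -96 and the quartiles -213 and 45.

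**Figure D2:**
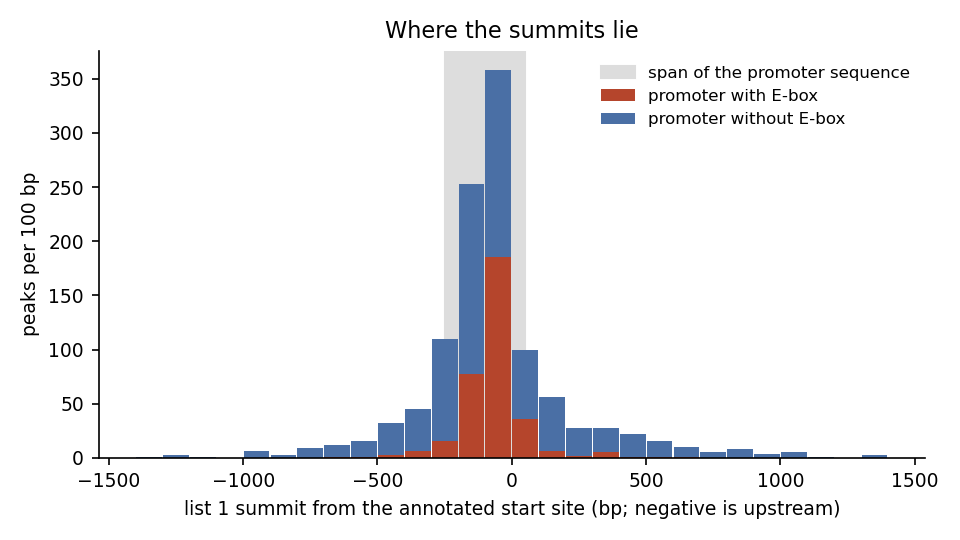
Number of peaks at a 5′ end per 100 bp (vertical) by the distance of the list 1 summit from the annotated start site in bp (horizontal, negative upstream), split by whether the promoter sequence held an E-box; grey marks the span of that sequence. Summits gather just upstream of the start, with a median of -78 bp, and those with an E-box are packed more tightly around it. E-boxes were looked for only in the grey span, which by itself favours summits near the start in that class.

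SCD, the fatty acid desaturase, had its peak 273.5 bp from the 3′ end of the gene and 17871 bp downstream of the start site, at chr10:100364696-100365503, with 57 and 59 tags and 12.02-fold and 14.52-fold. ZNF608, a zinc finger protein, had a 3′ peak of 16.38-fold and 10.64-fold (55 and 33 tags), and LOC128092247 one of 11.17-fold and 24.45-fold (110 and 217 tags), though both ends of that short gene were within 1 kb. The 8-fold level in each list was met by 9 of the 40 peaks at 3′ ends (22.5%, 12.3 to 37.5%) and by 207 of the 1243 at 5′ ends (16.7%, 14.7 to 18.8%), and these intervals overlap. INSIG1, which restrains sterol synthesis, had its peak at the 5′ end instead, with the summit at -79, 187 and 265 tags and 12.97-fold and 11.77-fold.

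E-boxes were found in the promoters of the members more often than in promoters at large. CACGTG, which reads the same on both strands, was present in 342 of the 1133 distinct promoters with a shared peak at the 5′ end (30.2%, 27.6 to 32.9%). Over all 13792 protein-coding promoters matched in the same way, 1235 held it, a share of 8.95% (8.49 to 9.44%), and these intervals do not overlap. In the 8953 promoters with no peak of either list within 1 kb the share was 5.13% (4.69 to 5.6%). Promoters near a shared peak with several gene ends in reach had 29.5% (25.9 to 33.4%), an interval that overlaps that of the members.

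The 30.2% of the shared peaks stood against 8.72% (7.53 to 10.1%) over 1881 promoters with a peak in list 2 alone and 9.06% (6.42 to 12.6%) over 331 with a peak in list 1 alone. Few peaks of 1 list alone were strong, so the shares were also set side by side within ranges of fold. Between 8-fold and 12-fold in list 2, 97 of 211 shared peaks had an E-box in the promoter (46.0%, 39.4 to 52.7%), and 24 of 117 peaks of list 2 alone had one (20.5%, 14.2 to 28.7%). Between 5-fold and 8-fold the shares were 18.3% (15.1 to 22%) for shared peaks and 11.0% (9.04 to 13.3%) for those of list 2 alone.

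Longer forms of the site stood out further. GTCACGTG, or CACGTGAC on the other strand, was present in 222 of the 1133 promoters (19.6%, 17.4 to 22.01%), against 3.55% of all promoters and 0.882% of those with no peak. The full palindrome, with GT before and AC after the E-box, was present in 38 (3.35%), against 0.566% of all promoters. Promoters near a shared peak with several gene ends in reach had similar shares, 20.4% for GTCACGTG and 4.83% for the full palindrome. CACATG, a near relative of the E-box, was present in 90 (7.94%, 6.51 to 9.66%), against 8.48% of all promoters, a difference within the interval. CACGCG was present in 21.8% (19.5 to 24.3%), against 14.9% of all promoters. That share lay near the 19.8% of promoters with a peak in list 2 alone and the 21.1% of those with a peak in list 1 alone.

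Sequences read by other promoter factors were also counted on both strands. GGGCGG, the GC box of SP1, was present in 896 of the 1133 promoters (79.1%), against 58.5% of all promoters, and CCGGAA, the core read by ETS factors, in 345 (30.5%), against 23.1%. CCAAT, read by NF-Y, was present in 500 (44.1%), against 37.1%, and TGACGTCA, the cyclic AMP response element, in 51 (4.50%), against 2.70%. TATAAA was rarer, in 64 (5.65%), against 10.0%. The members' 79.1% for GGGCGG and 30.5% for CCGGAA lay near the 75.1% and 28.5% of promoters with a peak in list 2 alone, unlike the E-box shares of these groups. CCAAT was in 38.8% of promoters with a peak in list 2 alone and 46.2% of those with a peak in list 1 alone. For TGACGTCA these shares were 3.72% and 4.23%.

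Promoters of the members were also rich in CpG, with a median of 29 CpG dinucleotides per 300 bases, against 22 over all promoters, and CACGTG holds a CpG itself. All matched promoters were therefore divided into 3 parts by their CpG number (at most 14, up to 28, and above). In the poorest part 18 of 78 promoters with a shared peak had an E-box (23.1%, 15.1 to 33.6%), against 4.80% of the other promoters. In the middle part the shares were 30.2% (26.1 to 34.5%) and 8.03%. In the richest they were 31.1% (27.6 to 35.0%) and 8.68%. In all 3 parts the interval of the members lay above the share of the other promoters.

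The share with an E-box climbed with the strength of the peak. The 1138 peaks at a 5′ end with a matched promoter were ranked by the lower of their 2 folds. Of the first 50, at 34.25-fold to 12.72-fold, 42 had an E-box (84%, 71.5 to 91.7%), and of ranks 51 to 100, down to 10.11-fold, 40 did (80%, 67.0 to 88.8%). The share was 63% (53.2 to 71.8%) in ranks 101 to 200, 44.5% (37.8 to 51.4%) in ranks 201 to 400 and 21% (16.8 to 26.0%) in ranks 401 to 700. It was 11.7% (8.51 to 15.8%) in ranks 701 to 1000 and 7.97% (4.51 to 13.7%) in the 138 peaks after them, where the interval includes the 8.95% of all promoters. Those last 138 peaks had lower folds of 3.83 down to 2.62 and a median list 1 FDR of 100%.

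**Figure D3:**
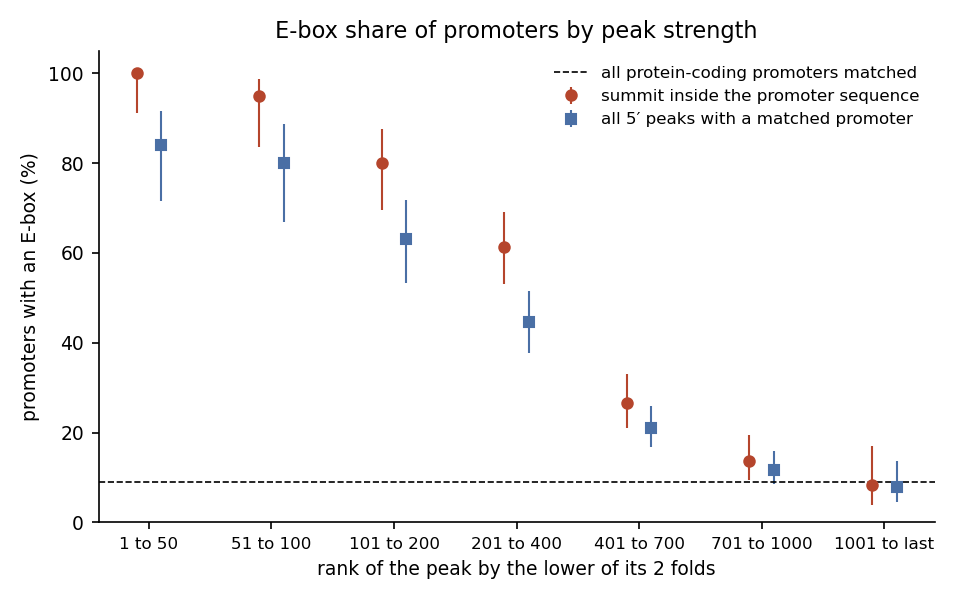
Percent of promoters with an E-box (vertical, bars are 95% Wilson intervals) in groups of peaks ranked by the lower of their 2 folds (horizontal, strongest left), for peaks whose summit lies inside the promoter sequence (circles) and for all 5′ peaks with a matched promoter (squares); the dashed line marks the 8.95% of all promoters. The squares go from 84% in the strongest group to 7.97% in the weakest.

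Ranked by the fold of 1 list, among these same peaks called in both, 79 of the 100 strongest by list 1 fold had an E-box and 76 of the 100 strongest by list 2 fold did, an order chosen after the data were seen. Ranked by the lower of their 2 tag numbers, the peaks gave a flatter relation. Of the 100 with the most tags 48 had an E-box (38.5 to 57.7%), and of the 100 with the fewest 17 did (10.9 to 25.5%). Members with the most tags outside the strongest 12 by fold were KAT5, a histone acetyltransferase (495 and 584 tags, 14.94-fold and 25.5-fold), MAP3K11, a kinase of the JNK pathway (410 and 668 tags, 6.58-fold and 6.12-fold), and DUSP1, a phosphatase of MAP kinases (387 and 536 tags, 8.26-fold and 16.59-fold). YAP1, the Hippo pathway coactivator (461 and 382 tags, 8.77-fold and 9.75-fold, with a list 1 FDR of 67.7%), and SLC20A1, a phosphate transporter (362 and 356 tags, 8.17-fold and 6.57-fold), followed. The promoters of DUSP1, YAP1 and SLC20A1 each held 1 E-box, and that of MAP3K11 held none. KAT5 had no matched promoter, so it was not searched. The list 1 summit of MAP3K11 lay at -1273, outside the promoter sequence, so the bases under it were not searched.

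A summit outside the 300 bases cannot lie over an E-box that this sequence would show, so the peaks with the summit inside were counted separately. There the first 50 ranks held 40 such peaks, and all 40 had an E-box (100%, 91.2 to 100%). In ranks 51 to 100, 38 of 40 had one (95%, 83.5 to 98.6%), and in ranks 101 to 200, 60 of 75 (80%, 69.6 to 87.5%). In ranks 1001 to last it was 6 of 72 (8.33%, 3.88 to 17.0%). Among peaks of at least 8-fold in both lists, 136 of 150 with the summit inside the sequence had an E-box (90.7%, 84.9 to 94.4%), against 7 of 41 with the summit outside it (17.1%, 8.53 to 31.3%). TRMO, a tRNA methyltransferase with 27.16-fold and 35.24-fold, and TOM1, an endosomal sorting adaptor with 23.15-fold and 20.53-fold, were the strongest without an E-box in the promoter. Their summits lay at 218 and 582, downstream of the sequence.

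The E-boxes lay under the summits. In the 307 promoters with both a CACGTG and the list 1 summit inside the sequence, the summit was a median of 17 bp from the centre of the nearest CACGTG (quartiles 7 and 38.5), and 215 (70.03%) lay within 30 bp. The list 2 summit, called from separate libraries, was a median of 16 bp away and within 30 bp in 210 (68.4%). With GTCACGTG the medians were 15 and 13 bp in 215 promoters. Other motifs lay farther from the summits, with list 1 and list 2 medians of 67 and 83 bp for CACGCG, 36.5 and 57 bp for CCAAT and 60 and 75 bp for CCGGAA. The GC box, which can occur several times in a promoter, had 32 and 47 bp. TATAAA had 89 and 94 bp.

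The 2 lists also placed their summits closer together where there was an E-box. The median gap between the paired summits was 23 bp (quartiles 10.25 and 48) for the 302 peaks with 1 E-box and 23 bp (7 and 34) for the 41 with more, against 82 bp (30 and 211.5) for the 795 without one. Seen the other way, 308 of 750 peaks with summits within 100 bp of each other had an E-box (41.1%, 37.6 to 44.6%), and 35 of 388 with summits farther apart had one (9.02%, 6.56 to 12.3%).

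The number of E-boxes went with the fold. Peaks over promoters with 2 or more had medians of 13.1-fold in list 1 and 18.25-fold in list 2, and 33 of the 41 (80.5%) reached 8-fold in both lists. With 1 E-box the medians were 7.4-fold and 9.93-fold and 110 of 302 (36.4%) reached it. Without any they were 5.21-fold and 5.85-fold and 48 of 795 (6.04%) did. A promoter with several E-boxes was found for 41 peaks (3.6%, 2.67 to 4.85%), against 0.906% of all promoters. The first 2 sites of such a promoter began a median of 42 bp apart, with quartiles of 25 and 77 and a range of 8 to 198, and 8 promoters held 3 or more.

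**Figure D4:**
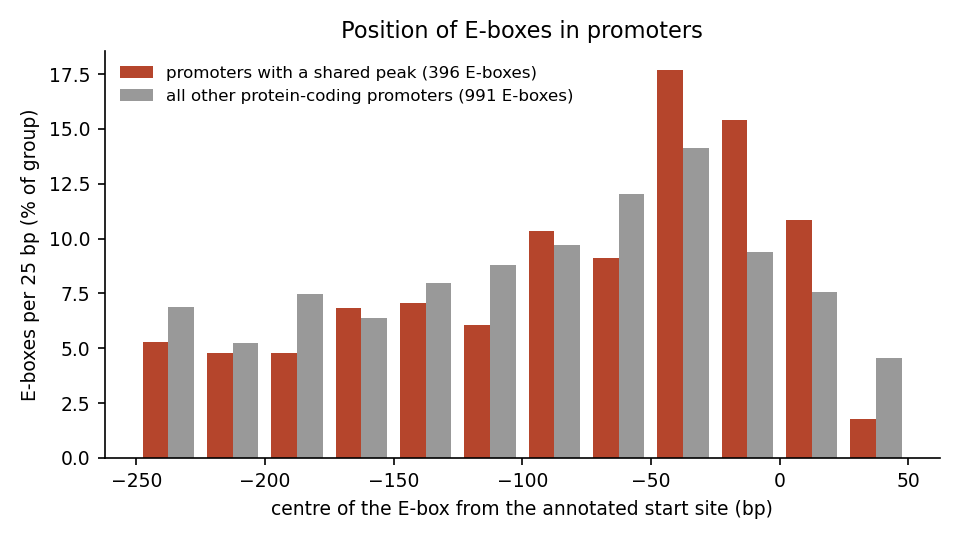
Percent of the E-boxes of each group per 25 bp (vertical) by the position of the E-box centre from the annotated start site in bp (horizontal), for promoters with a shared peak at the 5′ end (396 E-boxes) and all other protein-coding promoters (991 E-boxes). Both groups peak just upstream of the start, and 52.5% and 45.2% of their E-boxes lie in the 100 bp before it.

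E-boxes of the members lay a little nearer the start than those of other promoters, with medians of -61.5 and -83. The 100 bp before the start held 208 of 396 (52.5%, 47.6 to 57.4%) in the members and 448 of 991 (45.2%, 42.1 to 48.3%) in the other promoters, and these intervals overlap. The bases beside the palindrome differed more. An E-box with GT directly before it on at least 1 strand made up 95 of 121 E-boxes (78.5%, 70.4 to 84.9%) in the promoters of the 100 strongest peaks and 246 of 393 (62.6%, 57.7 to 67.2%) in all promoters with a shared peak at the 5′ end. In promoters with no peak it made up 84 of 494 (17.0%, 13.9 to 20.6%).

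The flank went with the strength of the peak. The 222 peaks over a GT-flanked E-box had medians of 8.6-fold and 12.26-fold, and 121 of them (54.5%) reached 8-fold in both lists. The 121 peaks whose E-boxes all lacked that flank had 6.25-fold and 6.67-fold, and 22 (18.2%) reached it. In the first 50 ranks 38 peaks (76%, 62.6 to 85.7%) had a flanked E-box, and in ranks 701 to 1000 11 of 300 did (3.67%, 2.06 to 6.45%), against 3.55% of all promoters. Of the single half-sites, GT made up 36.4% in the members and 8.91% in promoters with no peak. AT had 6.62% and 2.33%. CC had 11.5% and 13.1%, and TC had 2.29% and 6.38%.

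Only 14 peaks of at least 8-fold in both lists had the summit inside the promoter sequence and no CACGTG there. They included TPP1, a lysosomal peptidase, GRN, the precursor of lysosomal granulins, SHMT1, a serine hydroxymethyltransferase (14.82-fold and 10.09-fold), and EEF2, the elongation factor of translation (8.26-fold and 11.2-fold). Hexamers that differ from CACGTG by 1 base were looked for within 30 bp of the summit, after the data were seen, and 4 of the 14 promoters had one whose 24-base surroundings lay inside the sequence. How often other promoters hold such a hexamer that near a summit was not counted, so the 4 have no share to be set against. Those of TPP1, GRN and NRDC are shown with the hexamer in capitals.
TPP1, upstream site: tatagagctCATGTGatccgtcac
TPP1, downstream site: gtgatccgtCACATGacagcagat
GRN, upstream site: tcccgacgtCACATGattctccaa
GRN, downstream site: ttctccaatCACATGatccctaga
NRDC, upstream site: agtccgggtCACGTTggtgcctct
NRDC, downstream site: ttggttgctTACGTGagcgtgact

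TPP1 held CATGTG and CACATG, which are the same hexamer on opposite strands, 12 bases apart at -20 and -8, with GT directly before the downstream one and AC directly after it. Its peak had 189 and 246 tags and 9.61-fold and 16.69-fold. GRN held CACATG at -222 and -206 under a summit at -230, with 10.58-fold and 12.62-fold. NRDC, a metallopeptidase, held TACGTG centred 10 bp from its summit and CACGTT, with GT before it, centred 29 bp from it (8.62-fold and 8.04-fold). CACATG was present in 3 of the 14 promoters (21.4%), against 8.52% of all promoters without a CACGTG, a count of 3. It lay within 30 bp of the summit in 2 of them. It was not the most frequent of these hexamers. CACCTG was present in 6 promoters (42.9%), against 19.6%, but in 0 of them within 30 bp of the summit. CACGGG was present in 3 promoters (21.4%), against 12.6%. Some hexamers were less frequent than in all promoters without an E-box, with CACGCG present in 1 promoter (7.14%), against 14.4%.

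The members were next grouped by function, in lists chosen with earlier results of these data known. Peaks were counted whatever their FDR, and some genes named below stood at a list 1 FDR of 100%, among them PER3 and HERPUD1. A shared peak at a single gene end was present at 7.45% of all 19974 protein-coding genes, and one of at least 8-fold in both lists at 1.34%. Of 37 genes for lysosomal membrane proteins and sorting, 11 had a peak (29.7%, 17.5 to 45.8%), and 9 of these reached 8-fold in both lists. CLCN7, LAMP1, MCOLN1, IGF2R and NAGPA led them, and all 8 of the list's peaks with a matched promoter had an E-box there. The median fold of these genes was 15.36 in list 1 and 27.35 in list 2, against 5.69 and 6.56 over all 1496 peaks. Of 40 lysosomal enzymes 9 had a peak (22.5%, 12.3 to 37.5%), led by HEXA, a subunit of beta-hexosaminidase (213 and 243 tags, 25.59-fold and 35.43-fold), the proteases CTSD (12.27-fold and 10.8-fold) and TPP1, PLBD2 (10.71-fold and 14.18-fold) and NAGLU (6.63-fold and 13.17-fold). Their medians were 8.55-fold and 10.8-fold.

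Of 24 vacuolar ATPase genes 5 had a peak (20.8%, 9.24 to 40.5%), and all 5 reached 8-fold in both lists. They were ATP6V1H (22.5-fold and 38.25-fold), ATP6V0D1, ATP6V0B (16-fold and 18.25-fold), ATP6V0E1 (13.11-fold and 14.52-fold) and ATP6V1G1 (9.23-fold and 19.89-fold). The 3 with a matched promoter all had an E-box, and the medians were 16-fold and 19.89-fold. Of 39 genes of the Rag GTPases and mTORC1, 13 had a peak (33.3%, 20.6 to 49.0%) and 5 reached 8-fold. After RRAGB came RRAGC (163 and 221 tags, 14.72-fold and 19.22-fold), the Ragulator subunits LAMTOR4 (9.78-fold and 10.07-fold) and LAMTOR1 (8.72-fold and 14.46-fold), and FNIP1, a partner of folliculin (9.04-fold and 14.45-fold). Of the 12 matched promoters 7 had an E-box, and the medians of the list were 7.61-fold and 8.64-fold.

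Of 47 HOPS, ESCRT and retromer genes 10 had a peak (21.3%, 11.99 to 34.9%), with VPS26A, a retromer subunit, at 11.84-fold and 24.49-fold, VPS33A, which acts in fusion at the lysosome, at 15.89-fold and 12.43-fold, and VPS37B, an ESCRT subunit, at 11.98-fold and 18.97-fold. Of 44 autophagy genes 5 did (11.4%, 4.95 to 23.98%), an interval that includes the 7.45% of all genes. WIPI1 (8.55-fold and 14.9-fold) and UVRAG (8.38-fold and 14.29-fold) were the 2 at 8-fold or more. RAB GTPases had a peak in 10 of 63 (15.9%, 8.86 to 26.8%), and 1 of 9 matched promoters had an E-box. RAB9A (10.92-fold and 10.13-fold) was the 1 gene at 8-fold, 1.59% of the list against 1.34% of all genes.

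Translation initiation factors had a peak in 17 of 55 (30.9%, 20.3 to 44.0%). EIF4G1 led, with EIF1B (14.24-fold and 23.11-fold), EIF4E, the cap-binding protein (178 and 121 tags, 12.5-fold and 21.6-fold), EIF3F (11.03-fold and 9.82-fold) and EIF3A (7.95-fold and 10.41-fold), and 8 of 15 matched promoters had an E-box. The medians, 6.25-fold and 6.46-fold, were near those of all members. Ribosome biogenesis genes had one in 11 of 49 (22.4%, 13.0 to 35.9%). Of these UTP20 (8.04-fold and 13.68-fold) alone reached 8-fold, 2.04% of the list against 1.34% of all genes. UTP14A, a factor of small-subunit processing, had 2 list 1 peaks at its start (4-fold and 10.62-fold) that met the same list 2 peak (7.62-fold). Cytosolic ribosomal proteins had one in 8 of 84 (9.52%, 4.91 to 17.7%) and mitochondrial ones in 6 of 77 (7.79%, 3.62 to 15.98%), near the 7.45% of all genes.

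Clock and stress genes had peaks. The shares with one of at least 8-fold in both lists were 4% and 0%, against 1.34% of all genes. Circadian clock genes had one in 8 of 25 (32%, 17.2 to 51.6%), with NR1D2 (253 and 272 tags, 8.15-fold and 13.34-fold) as the 1 gene at 8-fold, followed by PER3 at 6.25-fold and 10.98-fold. NR1D1, a repressor in the clock, was at 11.82-fold in list 1 and 5.08-fold in list 2. Of 7 matched clock promoters 2 had an E-box. Unfolded protein response and ERAD genes had one in 10 of 43 (23.3%, 13.2 to 37.7%), led by the activator ATF4 (7.25-fold and 12.94-fold), and 0 reached 8-fold, with medians of 4.91-fold and 6.54-fold. HERPUD1, an ER membrane protein of that list, was among the 3 members with the largest excess of list 2 over list 1, at 3.75-fold in list 1 and 14.52-fold in list 2 (138 and 220 tags). PTPDC1 (6.05-fold and 21.91-fold) and SPATA2L (3.37-fold and 18.06-fold) were the other two.

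The opposite excess was seen at MIPEP, a mitochondrial peptidase, at 16.75-fold in list 1 and 6.38-fold in list 2 (55 and 38 tags). RFC1, a subunit of the replication clamp loader (9.83-fold and 4.14-fold), and ENC1 (7.37-fold and 2.94-fold) followed. The paired summits lay 633 bp apart at RFC1, 356 bp at ENC1 and 1380 bp at SPATA2L, so those folds were taken at different positions. The list 2 peak of RFC1 had its summit 32 bp from that of the gene's other list 1 peak (4.86-fold). PPP1R15A, which directs a phosphatase to the initiation factor eIF2, had a peak at each end, with 4.58-fold and 6.79-fold at the 5′ end and 6.71-fold and 4.53-fold at the 3′ end. RELA, an NF-kB subunit, also had one at each end, as did DNAJB12, a co-chaperone of the ER membrane. The other genes with 2 members were CORO1C, RFC1, SMAD2, UTP14A and YPEL5, which made 8 in all.

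Sterol and fatty acid genes had a peak in 8 of 36 (22.2%, 11.7 to 38.1%), and 3 reached 8-fold. SC5D, a late enzyme of cholesterol synthesis, led with 62 and 80 tags and 13.64-fold and 16.81-fold over a promoter with 1 E-box, ahead of SCD and INSIG1. The list 1 FDR was 26.7% at SC5D, 16.4% at SCD and 2.44% at INSIG1. FASN, the fatty acid synthase and a textbook USF target, had 121 and 143 tags but 5.9-fold and 6.24-fold. HOX genes had one in 8 of 39 (20.5%, 10.8 to 35.5%), and 5 reached 8-fold. HOXC13 led with 295 and 447 tags and 19.24-fold and 27.05-fold, and HOXB7 had 17.09-fold and 26-fold ahead of HOXA7. Mediator subunits had one in 5 of 30 (16.7%, 7.34 to 33.6%), 3 of them at 8-fold or more. MED13L had 9.03-fold and 22.86-fold, MED28 10.34-fold and 19.83-fold and MED13 12.35-fold and 13.27-fold.

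DNA repair genes had a peak in 10 of 55 (18.2%, 10.2 to 30.3%). Splicing genes had one in 7 of 40 (17.5%, 8.75 to 32.0%), among them SF3B1 (7.58-fold and 12.2-fold). In the cell cycle and p53 list it was 5 of 38 (13.2%, 5.75 to 27.3%), with CDK4 far ahead of CDC20 (7.75-fold and 7.84-fold). Of 23 factors of the bHLH-ZIP class and their partners 4 had one (17.4%, 6.98 to 37.1%), namely MAX, the obligate partner of MYC (16.25-fold and 15.24-fold), MGA (10.42-fold and 14.04-fold), MXD4 (4.48-fold and 4.68-fold) and MNT (3.6-fold and 5.9-fold). No member lay at the genes USF1, USF2 or MYC.

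The large families lay near or below the level of all genes. ZNF genes had a peak in 36 of 510 (7.06%, 5.14 to 9.62%), led by ZNF507 (21.39-fold and 14.75-fold), and solute carriers in 36 of 379 (9.50%, 6.94 to 12.9%), led by SLC22A24, an organic anion transporter family member (16.02-fold and 15.14-fold). Histone genes had one in 8 of 89 (8.99%) and TMEM genes in 14 of 232 (6.03%). In each of these 2 lists 0 reached 8-fold, against 1.34% of all genes. Keratins had one in 2 of 149 (1.34%, 0.369 to 4.76%) and olfactory receptors in 3 of 390 (0.769%, 0.262 to 2.24%), 2 of these 3 at a 3′ end. Of 45 hepatocyte genes 0 had one (upper Wilson bound 7.87%). Over the 43 lists, 33 had a larger share than all genes, and for 14 the whole interval lay above it and for 2 below it. These counts are not a test, because the lists were chosen with earlier results known. The share of all genes also includes families with few peaks, such as olfactory receptors and keratins, which lowers it.

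**Figure D5:**
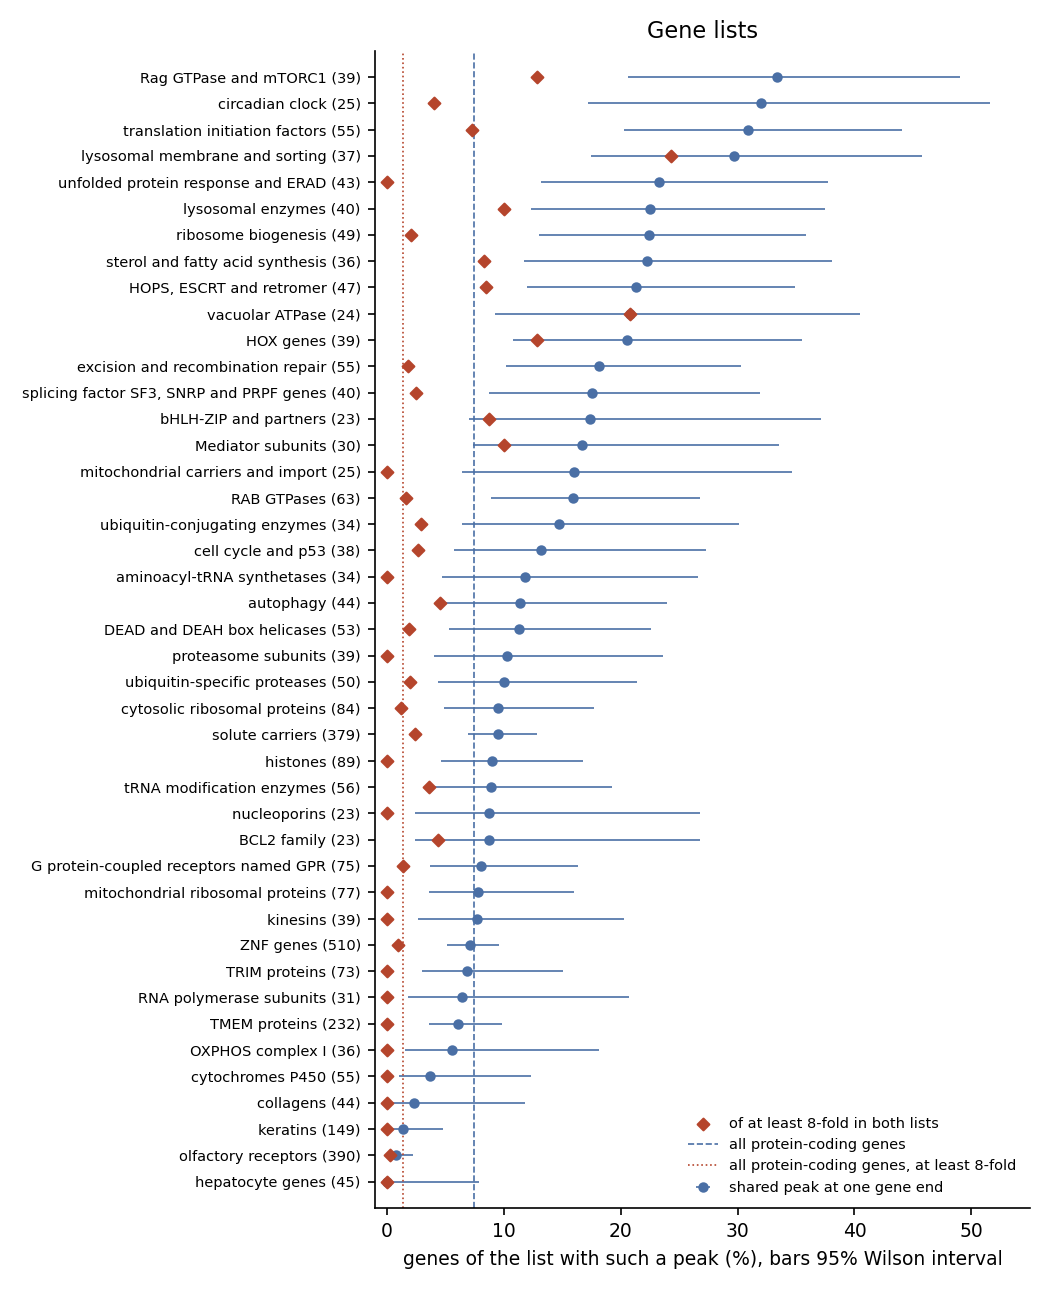
Percent of the genes of each list with a shared peak at a single gene end (circles, bars are 95% Wilson intervals) and with one of 8-fold or more in each list (diamonds), with the number of genes in brackets; the lines mark all protein-coding genes, 7.45% (dashed) and 1.34% (dotted). Lysosomal membrane and vacuolar ATPase genes have diamonds at 24.3% and 20.8%. The unfolded protein response list has its diamond at 0, close to the dotted line.

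By chromosome the share of genes with a member ran from 5.10% on chromosome 22 to 9.81% on chromosome 7. Chromosome 19 had 128 members, 40.3% of its 318 shared peaks. Chromosome 5 had 62, which was 16.4% of its 378 shared peaks and the smallest such share. A gene of another type, such as a non-coding RNA, also had an end within 1 kb of 436 members (29.1%, 26.9 to 31.5%).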

How the data were processed

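The 2 peak lists were analysed as deposited. Per the file headers, the authors called peaks with MACS 1.4.2 at a p-value cutoff of 1e-05, each IP against the input of its number, and kept at most 1 tag per position. The submitters' processing notes also list Bowtie2, deepTools, HOMER and GRCh38 without saying what each was used for. The authors deposited per peak a count of IP tags, a score (-10 times log10 of the caller's p), a ratio of IP over expected tags (fold) and an FDR in percent from swapped libraries. All these values are the authors' own.

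Peaks were paired by overlap of at least 1 bp, and where 2 list 2 peaks overlapped (12 of 1496) the one of higher fold was used. Genes and the 300-base promoters came from RefSeq tables of GRCh38.p14. A promoter was used where its start site was the outer 5′ boundary of the gene (13792 genes, 1138 of the peaks at a 5′ end), and strand came from that table. Motifs were counted as exact matches on both strands. The 43 gene lists (16 of symbols, 27 of name patterns, 1 symbol unmatched) are described by counts. Named genes are the 12 highest by lower fold, the 5 with most tags, the 3 strongest at 3′ ends, the 3 most unequal each way between lists, those just inside and outside 1 kb, genes with 2 peaks and up to 5 per gene list. Others were chosen after their values were seen. The members, lists and naming rule were chosen with earlier results of these data known. No test was made, since there are 2 lists and the rule used them. Peak assignment and motif search were tested on simulated data. Python 3.11.15, pandas 2.3.3, statsmodels 0.14.6 and matplotlib 3.10.9 were used. Alternatives were another position, distance, overlap, threshold, annotation and motif, and each list alone.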

Additional observations from a re-analysis of the deposited data

How the results depend on the processing

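The number of peaks (1496), the median lower fold (5.25), the 5′ share (96.9%), the share with CACGTG (30.1% of peaks) and the share with the higher fold in list 2 (68.4%) moved by less than their counting interval, replicate spread or 1.5 times, with the summit in place of the centre, with an overlap of 50% of the list 1 peak and where exactly 1 gene of any type was in reach. Asking for exactly 1 gene of any type left 1060 of the 1496 peaks, which is still within 1.5 times. The distance changed the 5′ share, to 98.4% within 500 bp and 95.03% within 2 kb. Stricter calls left fewer and stronger peaks. A fold of at least 8 left 267 peaks (median 10.29, E-box share 74.9%, higher in list 2 81.3%), a caller p of at most 1e-10 left 578 (E-box share 47.8%, higher in list 2 74.0%) and an FDR of at most 5% left 135 (median 12.62, 5′ share 99.0%, E-box share 76.0%, higher in list 2 77.0%). With a single list there were 2007 peaks without replicate 2 and 4267 without replicate 1. The leave-one-out range was 93.4% to 94.1% for the 5′ share and 16.8% to 25.4% for the E-box share, and 5.4 to 5.53 for the median fold. The E-box share was 19.5% for GTCACGTG or CACGTGAC, 34.9% with CACATG added and 41.1% with the summit inside the promoter. The 3 alternatives chosen after the data were seen gave 41.0% (any promoter of the table over the summit) and 79% and 76% (strongest 100 by list 1 and list 2 fold). Summed over the gene lists, 327 entries had a peak and 75 at a fold of at least 8. No paired analysis was possible because no test between IP and input was made from the lists, which hold no input tags per peak. IP tags per peak were as low as 22 in list 1, and the effect of depth on the calls was not tested.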
